A study of Mus musculus with 12 samples.

Results

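Peroxisome assembly and peroxisomal lipid oxidation were examined in the adrenal cortex through 34 genes, taken by symbol from a fixed list out of the 49585 genes in the count tables. The list holds peroxins, which build the organelle and bring proteins into it, fatty acid transporters, enzymes that shorten, release, or build lipids, and catalase. RNA of the adrenal cortex was sequenced from 12 male mice, 4 in each of 3 groups and 1 library per mouse. LFD mice received a low-fat diet (10% of energy as fat) for 20 weeks from 6 weeks of age, and HFD mice received a high-fat diet (60%) over the same time. Icosapent ethyl–treated mice received the HFD for 20 weeks, with icosapent ethyl, the ethyl ester of the omega-3 fatty acid EPA, mixed into it during the last 10 weeks. The labels call the LFD group Normal Diet and carry the genotype Fads2-/- for all 12 mice, whereas the methods describe wild-type C57BL/6J mice, and *Fads2* had 22359 to 104974 counts in each library. LFD mice bear the numbers 2, 5, 6, and 7 in the labels and the mice of both other groups the numbers 1 to 4.

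Peroxisomes are single-membrane organelles that take up finished proteins from the cytosol. Receptors such as PEX5 and PEX7 recognize the cargo, dock at the membrane, and are then pulled back for another round. Inside, very-long-chain and branched fatty acids and bile acid precursors are shortened by beta-oxidation, with hydrogen peroxide as a by-product that catalase removes, and the first steps of ether lipid synthesis take place there. Genes of this organelle are classic targets of PPARalpha, a nuclear receptor that senses fatty acids, and steroid-producing cells are known to be rich in peroxisomes.

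Total counts per library ranged from 34785979 to 67295963. All 15 adrenocortical markers, among them *Star*, *Cyp11a1*, and *Cyp11b1*, were detected in every mouse, with a mean log2(CPM + 0.5) between 9.60 and 10.5. Markers of chromaffin cells, the hormone-secreting cells of the adjoining medulla, were present as well, and all 13 were detected in every mouse. In bulk tissue, fewer cells of a type and less RNA per cell cannot be told apart. Each p-value sets a difference between groups against the spread between mice, each of which gave 1 library.

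Promoter windows around the RefSeq start of transcription (build GRCm38.p6) were found for 28 of the 34 genes. A gene can have several windows, and *Pex16* has 2, of which the one at the annotated start of the gene is shown. Windows of *Pex16*, *Cat*, and *Pex11a*, the members with the lowest p-values in HFD versus LFD mice, are shown because their transcripts stood highest over the LFD mice relative to the spread. Each is written 5′ to 3′ on the strand of the gene. Capitals mark a match on either strand to the CCAAT box, to GGGCGG, known as the GC box, to AGGTCA, the core motif of nuclear receptors such as PPARalpha, or to TATAAA, the letters of a TATA box.
*Pex16*, chr2:92374426-92374725, plus strand: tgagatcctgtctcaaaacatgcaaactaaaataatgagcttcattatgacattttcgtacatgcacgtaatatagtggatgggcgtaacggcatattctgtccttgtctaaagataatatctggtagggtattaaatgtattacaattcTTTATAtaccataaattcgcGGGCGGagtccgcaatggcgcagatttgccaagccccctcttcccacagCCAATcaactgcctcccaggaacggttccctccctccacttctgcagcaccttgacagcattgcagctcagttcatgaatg
*Cat*, chr2:103485104-103485403, minus strand: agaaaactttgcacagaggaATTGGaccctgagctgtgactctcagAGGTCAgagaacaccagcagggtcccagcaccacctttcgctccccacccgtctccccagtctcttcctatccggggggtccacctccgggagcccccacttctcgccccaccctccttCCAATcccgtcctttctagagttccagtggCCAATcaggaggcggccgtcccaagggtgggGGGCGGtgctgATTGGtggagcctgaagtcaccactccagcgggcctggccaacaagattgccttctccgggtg
*Pex11a*, chr7:79743082-79743381, minus strand: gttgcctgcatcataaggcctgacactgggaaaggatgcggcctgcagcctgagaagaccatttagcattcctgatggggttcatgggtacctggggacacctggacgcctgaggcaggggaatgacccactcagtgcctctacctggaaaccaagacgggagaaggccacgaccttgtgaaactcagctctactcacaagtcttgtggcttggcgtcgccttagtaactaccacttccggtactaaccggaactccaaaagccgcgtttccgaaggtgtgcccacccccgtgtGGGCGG
The *Cat* window held 4 CCAAT boxes, 1 GC box, and 1 AGGTCA core, this *Pex16* window 1 CCAAT box, 1 GC box, and 1 TATA box, and the *Pex11a* window 1 GC box at its end. The other *Pex16* window, at chr2:92374989-92375288, held none of these motifs.

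Matches were counted per gene, and a gene was counted when any of its windows held the motif. Across the 28 genes, a GC box was the most frequent match. It was found for 21 (75%), compared with 38.2% of all 27025 genes in the promoter table. A CCAAT box was found for 14 (50%, all genes 41.1%) and the AGGTCA core for 5 (17.9%, all genes 18.1%), namely *Acot4*, *Cat*, *Pex11g*, *Phyh*, and *Scp2*. None had the direct repeat of AGGTCA with 1 base between the copies, which 0.0481% of all genes had, or CAAGGTCA, the element known for the steroidogenic factor SF-1, which 1.76% had. The AGGTCA core lies within both of these longer motifs. TGACGTCA, the cAMP response element, was found for *Pex11g* and *Pex13* (7.14%, all genes 2.03%). These are matches of letters in a short window and do not show binding.

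Per kilobase of exon, the levels of the 34 genes spanned more than 3 orders of magnitude. In LFD mice, *Phyh*, which starts the breakdown of phytanic acid, had the highest mean, at 76.1 CPM per kilobase. *Scp2*, which encodes a thiolase and a sterol carrier protein, followed at 63.9 CPM per kilobase, and *Cat* at 61.1 CPM per kilobase. In HFD mice, *Cat* stood first of the 34, at 93.7 CPM per kilobase, above *Phyh* at 81.1 CPM per kilobase. The highest peroxin was *Pex5*, at 29.4 CPM per kilobase in LFD mice. At the low end, *Acox2*, an oxidase for bile acid precursors, had at most 6 counts in a library and was not tested. *Acaa1b* (5 to 30 counts) and *Acot4* (13 to 52 counts) were also close to the detection limit, so that counting error adds to their spread. *Acaa1b* has the near-identical paralog *Acaa1a*, and reads shared between them could not be assigned again.

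**Figure D1:**
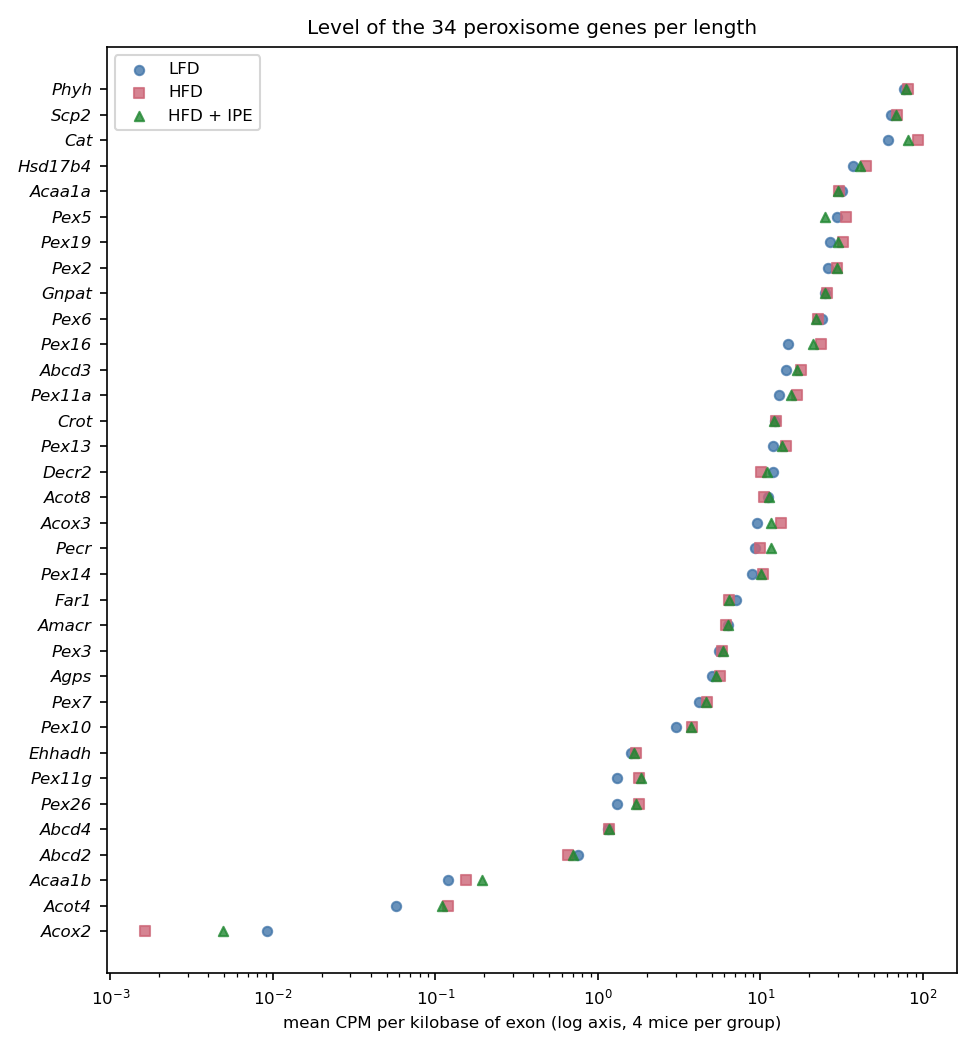
Mean level of the 34 peroxisome genes in each group, in CPM per kilobase of exon on a log axis, with 4 mice per group and genes ordered by their LFD mean. *Phyh*, *Scp2*, and *Cat* had the highest levels, *Acox2* was close to 0, and the *Cat* and *Pex16* symbols of the HFD mice lie to the right of those of the LFD mice.

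HFD versus LFD mice were compared to ask how diet-induced obesity alters peroxisomal transcripts in the adrenal cortex. None of the 33 members with enough counts passed the threshold in the edgeR quasi-likelihood test (adjusted p below 0.05 over all genes tested), where 230 of all 15909 genes did (1.45%). At an unadjusted p below 0.05, 12 of 33 were higher in HFD mice (36.4%, all genes 12.4%), and none was lower (all genes 12.5%). These 12 were *Pex13*, *Pex14*, *Pex10*, *Pex16*, *Pex19*, *Pex11a*, *Pex11g*, *Abcd3*, *Acox3*, *Hsd17b4*, *Acot4*, and *Cat*. DESeq2, the tool named in the methods of the study, gave an adjusted p below 0.05 for 5 members, *Pex16*, *Pex11a*, *Cat*, *Pex13*, and *Abcd3*, and for 12.3% of all genes with an adjusted p.

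The estimates lay mostly on the side of the HFD mice. With TMM scaling, 26 of 33 members had a higher fitted level in HFD mice (78.8%, all genes 48.2%), and with library totals alone 19 had. The median log2 fold change of the members was 0.15, compared with -0.015 over all genes tested. In 7 members, all 4 HFD mice lay above all 4 LFD mice (21.2% of the 33 tested, all genes 7.71%), and in none did all HFD mice lie below (all genes 5.81%). Mouse by mouse, the median difference of the members from their LFD mean on the log2(CPM + 0.5) scale was 0.076, 0.17, 0.14, and 0.23 in HFD mice 1 to 4, whereas the LFD mice themselves lay between -0.090 and 0.025. Over all genes, the same median stayed between -0.021 and 0.017 in each of the 12 mice.

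Levels of cell type markers are set beside these counts. The 13 chromaffin markers all had lower fitted levels in HFD mice (median log2 fold change -1.27, 0 past the threshold and 9 at an unadjusted p below 0.05), with summed levels of 6437 to 22678 CPM in LFD mice and 3107 to 10035 CPM in HFD mice. Of the 15 adrenocortical markers, 14 had higher fitted levels in HFD mice (median 0.49, 0 past the threshold and 7 at an unadjusted p below 0.05), with sums of 50450.2 to 80835 CPM in LFD mice and 63195 to 112626 CPM in HFD mice. Of 9 macrophage markers tested, 7 had lower fitted levels and 4 fell past the threshold (sums 723 to 1085 CPM in LFD mice, 506 to 612 CPM in HFD mice). Of 10 adipocyte markers, 7 had higher fitted levels and 0 passed (sums 252 to 450.2 CPM and 385 to 504 CPM). At an unadjusted p below 0.05, 3 of them were higher and 1, *Cfd*, was lower (log2 fold change -2.14). Hepatocyte markers, of interest because liver is rich in peroxisomes, summed to at most 2.77 CPM in any HFD or LFD mouse. With the chromaffin marker mean as a covariate, 4 members instead of 12 were higher in HFD mice at p below 0.05 before adjustment. The members' median was 0.085 and that of all genes 0.023. In that fit no gene of the 15909 tested passed the threshold, compared with 230 without the covariate. With library totals in place of TMM factors, 6 members were higher at p below 0.05 before adjustment. The members' median was then 0.055, and that of all genes was -0.11. The part of cell composition in the differences was not tested.

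**Figure D2:**
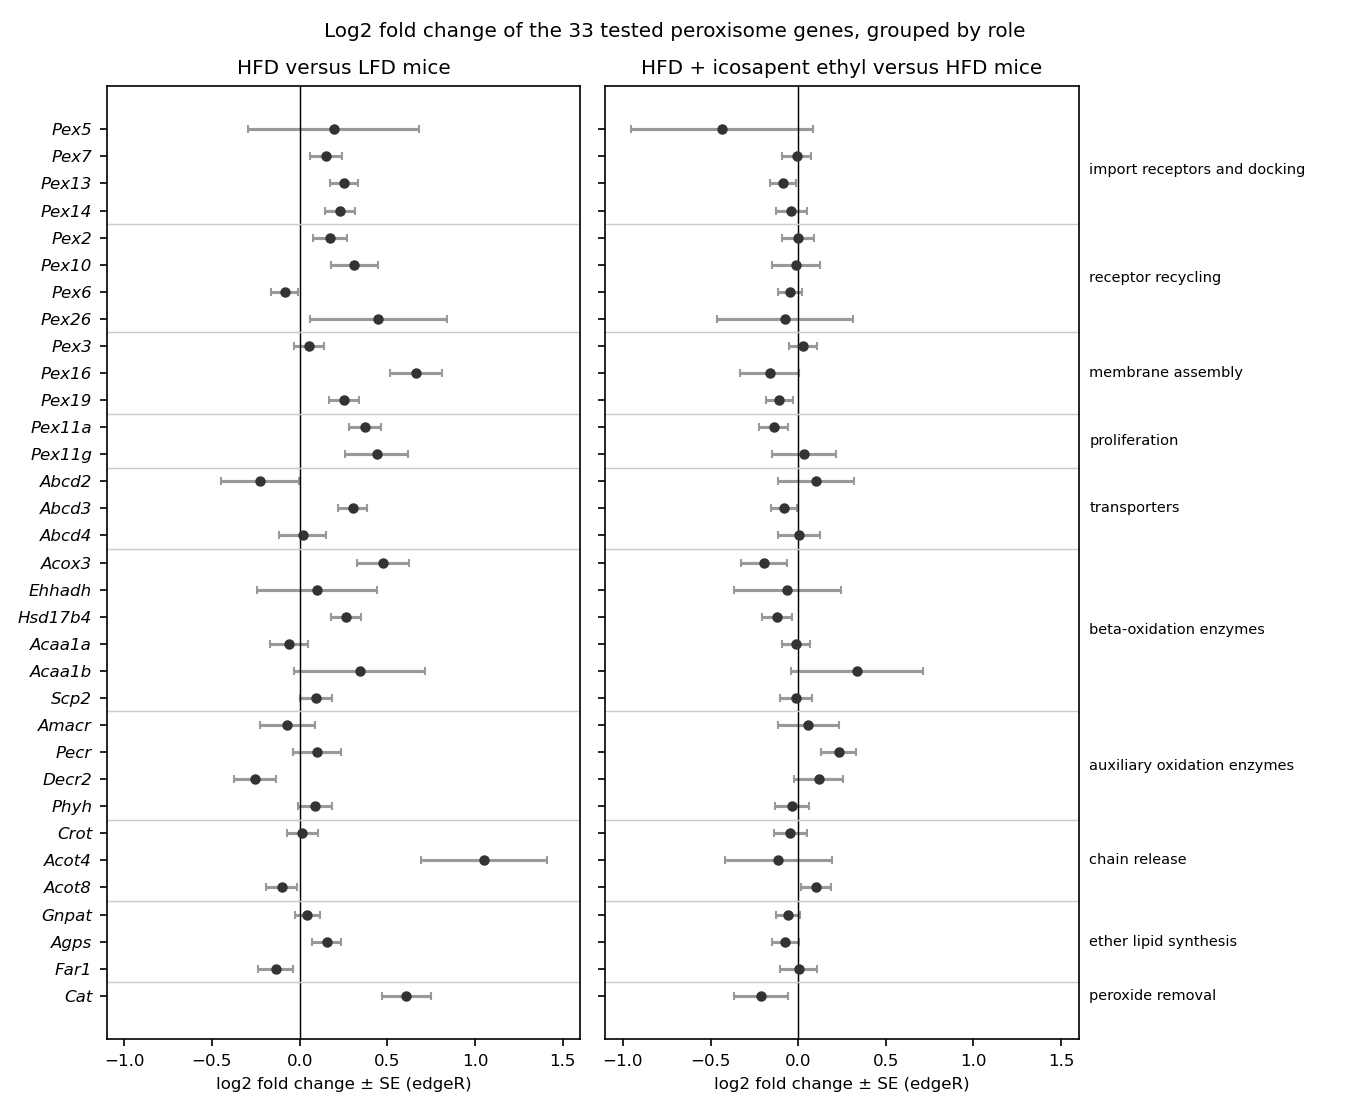
Log2 fold change with its standard error (edgeR, 4 mice per group) of the 33 tested members, grouped by role, for HFD versus LFD mice on the left and icosapent ethyl–treated versus HFD mice on the right. On the left, 26 points lie above 0 and *Acot4*, *Pex16*, and *Cat* lie farthest out, and on the right 10 lie above 0.

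Among the genes of membrane assembly, *Pex16* stood out. PEX16 and PEX3 receive membrane proteins, which PEX19, a soluble chaperone, brings to the peroxisomal membrane. *Pex16* was at 24.1, 26.8, 28.2, and 25.1 CPM in LFD mice 2, 5, 6, and 7, at 31.5, 37.0, 46.6, and 51.2 CPM in HFD mice 1 to 4, and at 40.8, 32.2, 33.3, and 42.1 CPM in icosapent ethyl–treated mice 1 to 4. Every HFD mouse and every treated mouse lay above all LFD mice, while HFD and treated mice overlapped. Mean *Pex16* was 26.0 ± 1.83 CPM (SD, n = 4) in the LFD group and 41.6 ± 8.95 CPM in the HFD group, the lowest adjusted p of the 33 members without passing the threshold (log2 fold change 0.66, SE 0.150, adjusted p = 0.0598, edgeR). *Pex16* (ENSMUSG00000027222) lies at chr2:92374676-92381217, plus strand, in GRCm38.

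*Pex19* separated the diets less clearly. *Pex19* was at 95.9, 98.4, 99.0, and 116 CPM in LFD mice 2, 5, 6, and 7, at 110.4, 123, 127, and 131 CPM in HFD mice 1 to 4, and at 121, 107, 111, and 116 CPM in icosapent ethyl–treated mice 1 to 4. The LFD mice other than mouse 7 lay below all HFD mice, but mouse 7 lay above HFD mouse 1. The difference did not pass (log2 fold change 0.25, SE 0.0838, adjusted p = 0.121). *Pex19* (ENSMUSG00000003464) lies at chr1:172126755-172136493, plus strand. *Pex3*, the membrane anchor of this step, had almost the same level in all mice, 23.5 to 29.2 CPM (log2 fold change 0.05, adjusted p = 0.745).

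Both genes of peroxisome proliferation were higher in HFD mice at p below 0.05 before adjustment. PEX11 proteins elongate the membrane before the organelle divides, and *Pex11a* is the form known to be induced with peroxisome proliferation. *Pex11a* was at 45.4, 41.2, 39.2, and 39.1 CPM in LFD mice 2, 5, 6, and 7, at 51.4, 54.9, 49.8, and 58.9 CPM in HFD mice 1 to 4, and at 46.9, 48.8, 46.8, and 52.6 CPM in icosapent ethyl–treated mice 1 to 4. The lowest HFD mouse and the lowest treated mouse both lay above the highest LFD mouse. Mean *Pex11a* was 41.2 ± 2.98 CPM (SD, n = 4) in the LFD group and 53.7 ± 4.04 CPM in the HFD group (log2 fold change 0.37, SE 0.0913, adjusted p = 0.0712). *Pex11a* (ENSMUSG00000030545) lies at chr7:79735957-79743131, minus strand. *Pex11g*, which has lower counts (162 to 327), ranged over 3.85 to 7.80 CPM and had a log2 fold change of 0.44 with an SE of 0.180 (adjusted p = 0.176).

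Import receptors and the docking complex had fitted levels that were all higher in HFD mice, by log2 fold changes of 0.15 to 0.25. PEX13 and PEX14 form the docking site at which loaded receptors arrive. *Pex13* was at 59.2, 55.5, 54.0, and 54.0 CPM in LFD mice 2, 5, 6, and 7, at 65.9, 67.7, 61.5, and 72.4 CPM in HFD mice 1 to 4, and at 62.6, 62.8, 60.2, and 66.4 CPM in icosapent ethyl–treated mice 1 to 4. The groups of HFD and LFD mice did not overlap for *Pex13*, although the gap between them was small (log2 fold change 0.25, SE 0.0798, adjusted p = 0.109). *Pex13* (ENSMUSG00000020283) lies at chr11:23646479-23665959, minus strand. *Pex14* did not overlap between diets either, with 50.5 to 57.4 CPM in LFD and 57.7 to 72.3 CPM in HFD mice (log2 fold change 0.23, adjusted p = 0.153). *Pex7*, the receptor of the second targeting signal, ranged over 45.7 to 61.2 CPM (log2 fold change 0.15, adjusted p = 0.338).

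The recycling machinery was mixed. PEX2 and PEX10 are subunits of the ubiquitin ligase that marks PEX5 for export, and PEX6, an ATPase anchored by PEX26, pulls it out. *Pex10* was higher in all HFD than in all LFD mice, 11.6 to 13.5 against 8.72 to 11.4 CPM (log2 fold change 0.31, adjusted p = 0.193). *Pex2* had a log2 fold change of 0.18 (adjusted p = 0.289) and *Pex6* one of -0.08 (adjusted p = 0.535), with *Pex6* among the members that varied least (81.2 to 95.0 CPM). The estimate for *Pex26* was 0.45 with an SE of 0.391 (adjusted p = 0.510).

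Of the transporters, *Abcd3* separated the diets and the others overlapped. ABCD3 (PMP70) is an abundant membrane protein that carries long branched acyl chains and bile acid precursors into the peroxisome, and ABCD2 carries very-long-chain fatty acids. *Abcd3* was at 86.7, 98.7, 89.9, and 103 CPM in LFD mice 2, 5, 6, and 7, at 115, 126, 105, and 122 CPM in HFD mice 1 to 4, and at 109, 109, 114, and 111 CPM in icosapent ethyl–treated mice 1 to 4. All HFD mice and all treated mice lay above the LFD mice. Mean *Abcd3* was 94.6 ± 7.53 CPM (SD, n = 4) in the LFD group and 117 ± 9.06 CPM in the HFD group (log2 fold change 0.30, SE 0.0823, adjusted p = 0.0844). *Abcd3* (ENSMUSG00000028127) lies at chr3:121758774-121815302, minus strand. *Abcd2* was low (2.71 to 5.70 CPM) with a log2 fold change of -0.22 (adjusted p = 0.569), and *Abcd4*, whose product acts at the lysosome in vitamin B12 transport, ranged over 8.42 to 10.4 CPM (log2 fold change 0.02, adjusted p = 0.951).

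**Figure D3:**
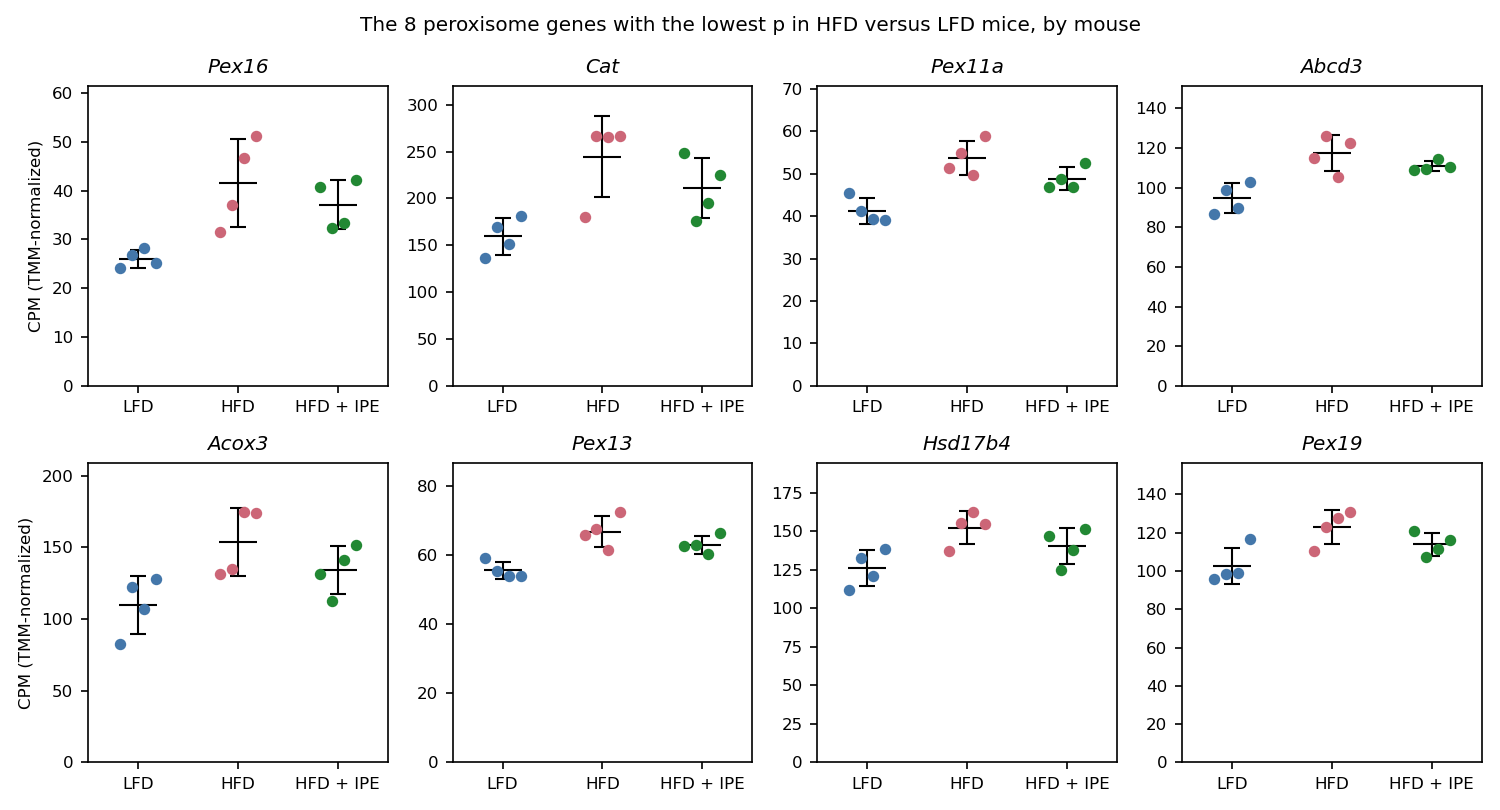
CPM (TMM-normalized) of the 8 members with the lowest p in HFD versus LFD mice, with 1 point per mouse and the mean ± SD of the 4 mice of each group in black. For *Pex16*, *Pex11a*, *Abcd3*, *Acox3*, and *Pex13* all HFD mice lie above all LFD mice, and for *Cat* HFD mouse 1, at 181 CPM, lies far below the other HFD mice.

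In the beta-oxidation spiral, an oxidase and the bifunctional enzyme of the branched-chain route were higher in HFD mice at p below 0.05 before adjustment. ACOX3 opens the cycle for branched chains, and HSD17B4 hydrates and dehydrogenates the product. *Acox3* was at 82.7, 122, 107, and 128 CPM in LFD mice 2, 5, 6, and 7, at 132, 135, 174, and 174 CPM in HFD mice 1 to 4, and at 131, 113, 141, and 152 CPM in icosapent ethyl–treated mice 1 to 4. HFD mice 3 and 4 were far above the rest, and the lowest HFD mouse lay just above the highest LFD mouse (log2 fold change 0.48, SE 0.149, adjusted p = 0.107). *Hsd17b4* was at 112, 132, 121, and 139 CPM in LFD mice 2, 5, 6, and 7, at 137, 155, 162, and 155 CPM in HFD mice 1 to 4, and at 147, 125, 138, and 151 CPM in icosapent ethyl–treated mice 1 to 4. For *Hsd17b4*, HFD mouse 1 lay below LFD mouse 7 and the other HFD mice lay above all LFD mice (log2 fold change 0.26, SE 0.0851, adjusted p = 0.114). *Acox3* (ENSMUSG00000029098) lies at chr5:35583040-35615352, plus strand, and *Hsd17b4* (ENSMUSG00000024507) at chr18:50128201-50196269, plus strand, where the pseudogene *Cd63-ps* overlaps it on the same strand.

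The other enzymes of the spiral did not separate by diet. *Ehhadh*, the bifunctional enzyme of straight chains and a textbook PPARalpha target, had a log2 fold change of 0.10 with an SE of 0.342 (adjusted p = 0.884). The thiolase genes *Acaa1a* (115 to 163 CPM, log2 fold change -0.06, adjusted p = 0.778) and *Acaa1b* (0.119 to 0.527 CPM, 0.34, adjusted p = 0.613) cut off the shortened chain. *Scp2* ranged over 207 to 261 CPM (log2 fold change 0.10, adjusted p = 0.550), and part of it overlaps *Podn* on the same strand in the annotation. Of the auxiliary enzymes, *Decr2*, which handles double bonds, had the most negative estimate of all members, -0.26 (SE 0.120, adjusted p = 0.221). *Phyh* had a log2 fold change of 0.09 (adjusted p = 0.626), the racemase gene *Amacr* one of -0.07 (adjusted p = 0.819), and the enoyl-CoA reductase gene *Pecr* one of 0.10 (adjusted p = 0.703).

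Genes for releasing shortened chains and for ether lipids showed no common direction. *Acot4*, which hydrolyzes dicarboxylic acyl-CoAs, had the largest estimate of all members, 1.05 (SE 0.359, adjusted p = 0.129), at only 0.263 to 1.13 CPM. *Crot*, the carnitine octanoyltransferase, had a log2 fold change of 0.02 (adjusted p = 0.932), and the thioesterase gene *Acot8* one of -0.10 (adjusted p = 0.510). Ether lipid synthesis begins with GNPAT and AGPS, to which FAR1 supplies the fatty alcohol. Their log2 fold changes were 0.04 for *Gnpat* (adjusted p = 0.746), 0.15 for *Agps* (adjusted p = 0.284), and -0.14 for *Far1* (adjusted p = 0.422).

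Catalase, which breaks down the hydrogen peroxide of the oxidases, had the second-lowest p of the members. *Cat* was at 136, 170.0, 152, and 181 CPM in LFD mice 2, 5, 6, and 7, at 181, 267, 265, and 266 CPM in HFD mice 1 to 4, and at 249, 176, 195, and 225 CPM in icosapent ethyl–treated mice 1 to 4. HFD mice 2, 3, and 4 were almost equal and lay above every LFD mouse, whereas HFD mouse 1 lay among the LFD mice. Mean *Cat* was 159.7 ± 19.8 CPM (SD, n = 4) in the LFD group and 245 ± 42.7 CPM in the HFD group (log2 fold change 0.61, SE 0.140, adjusted p = 0.0612). Without HFD mouse 1 the log2 fold change of *Cat* was 0.73 (adjusted p = 0.0174) and that of *Pex16* 0.77 (adjusted p = 0.0245), both past the threshold in edgeR, as were 5.70% of all genes. With the chromaffin marker mean as a covariate, the log2 fold change of *Cat* was 0.37 (adjusted p = 0.531), and those of *Abcd3*, *Hsd17b4*, and *Pex19* were 0.18, 0.17, and 0.14. Those of *Pex16*, *Acox3*, *Pex11a*, and *Pex13*, at 0.66, 0.48, 0.37, and 0.25 in the main fit, were 0.60, 0.33, 0.36, and 0.24 with the covariate. No gene of all those tested passed the threshold in that fit. *Cat* (ENSMUSG00000027187) lies at chr2:103453849-103485160, minus strand.

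Genes around the members were compared in the same fit. Of 40 other peroxisomal genes tested (48 listed), 1 rose past the threshold in HFD mice, *Nudt12*, which encodes a peroxisomal NAD-cap hydrolase (log2 fold change 0.64, SE 0.114, adjusted p = 0.0418). Over all genes tested, 1.45% passed the threshold in either direction. At an unadjusted p below 0.05, 8 of the 40 were higher (20%, all genes 12.4%) and 3 lower (all genes 12.5%). The median log2 fold change of the 40 was 0.11. *Nudt12* was at 31.5, 33.6, 27.8, and 32.4 CPM in LFD mice 2, 5, 6, and 7 and at 44.7, 58.9, 43.9, and 48.5 CPM in HFD mice 1 to 4, with no overlap.

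PPARalpha targets outside the peroxisome included more genes past the threshold. Of 19 tested (24 listed), 4 rose past the threshold in HFD mice, which 1.45% of all genes passed in either direction. At an unadjusted p below 0.05, 12 were higher (63.2%, all genes 12.4%) and none was lower (all genes 12.5%). The median log2 fold change was 0.42. Among the 4 were the lipid droplet gene *Plin2* (log2 fold change 0.49, SE 0.0818, adjusted p = 0.0398) and the mitochondrial beta-oxidation genes *Hadhb* (log2 fold change 0.74, SE 0.144, adjusted p = 0.0476) and *Acadl* (log2 fold change 0.59, SE 0.118, adjusted p = 0.0497). *Plin2* was at 275, 341, 305, and 333 CPM in LFD and at 424, 456, 432, and 459 CPM in HFD mice, and the groups did not overlap. Of 12 receptor and cofactor genes of the pathway tested, none passed in edgeR and 2 were higher at an unadjusted p below 0.05 (16.7%, all genes 12.4%). Leaving out any of HFD mice 2, 3, and 4 or of LFD mice 5, 6, and 7 left no gene past the threshold in edgeR, so that the calls of *Nudt12*, of these 4 targets, and of the macrophage markers were lost. *Ppara* itself was low, 3.16 ± 0.901 CPM (SD, n = 4) in the LFD group and 2.85 ± 0.774 CPM in the HFD group (log2 fold change -0.15, adjusted p = 0.789).

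Icosapent ethyl–treated mice were compared with HFD mice to ask what the supplement changed on the same diet. No member passed the edgeR test, and neither did any of the 15913 genes tested (0%). At an unadjusted p below 0.05, 1 of 33 members was higher in treated mice (all genes 0.672%) and none was lower (all genes 0.716%). With the replicate number as a block, none was higher and 1, *Acox3*, was lower at that level (log2 fold change -0.19, unadjusted p = 0.0386 in edgeR). Without HFD mouse 1, none was higher and 1, *Cat*, was lower (log2 fold change -0.33, unadjusted p = 0.0247 in edgeR). DESeq2 called no member and 7 genes in all (0.0268%). The median log2 fold change of the members was -0.040 with TMM scaling, when 10 of 33 had a higher fitted level in treated mice, and 0.028 with library totals, when 19 had. All 13 chromaffin markers had higher fitted levels in treated mice (median 0.58, sums 5565 to 11025 CPM), as had 8 of 9 mesothelial and capsule markers (median 0.53, 3 at an unadjusted p below 0.05). Lower fitted levels were found for 14 of 15 adrenocortical markers (median -0.14) and 7 of 8 endothelial markers (median -0.16), and no marker of these 4 lists passed in edgeR. Hepatocyte markers summed to 18.3 CPM in treated mouse 4 and to at most 1.71 CPM in the other treated mice.

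The member higher at an unadjusted p below 0.05 was *Pecr*, whose product reduces enoyl-CoA in chain elongation and phytol breakdown. *Pecr* was at 13.0, 11.8, 14.0, and 17.4 CPM in LFD mice 2, 5, 6, and 7, at 14.2, 15.8, 15.9, and 14.4 CPM in HFD mice 1 to 4, and at 17.4, 17.3, 17.3, and 18.8 CPM in icosapent ethyl–treated mice 1 to 4. Every treated mouse lay above every HFD mouse, but LFD mouse 7 was as high as most treated mice (treated versus HFD, log2 fold change 0.23, SE 0.10, unadjusted p = 0.0477 in edgeR). The p-value of *Pecr* was 0.0590 with the replicate block, 0.0562 to 0.115 when 1 mouse was left out, and 0.0191 with DESeq2, before adjustment in each case. *Acot8* also separated the groups, with 22.0 to 23.0 CPM in treated and 20.0 to 21.9 CPM in HFD mice, so that 2 members had all treated mice above all HFD mice (all genes 0.484%). The *Acot8* difference was small and did not pass (log2 fold change 0.10, SE 0.0871, unadjusted p = 0.276 in edgeR).

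Icosapent ethyl–treated mice were also set against LFD mice, which differ from them in diet and supplement at once. This comparison shares its samples with the other 2. No member and no gene passed in edgeR (0% of 15935), 9 of 33 members were higher at an unadjusted p below 0.05 (27.3%, all genes 7.29%), and none was lower (all genes 6.67%). In 7 members all treated mice lay above all LFD mice (21.2%, all genes 4.04%), namely *Pex13*, *Pex14*, *Pex16*, *Pex11a*, *Pex11g*, *Abcd3*, and *Acot4*. *Pex16* had the lowest p (log2 fold change 0.51, SE 0.118, adjusted p = 0.188 in edgeR) and was the 1 member that DESeq2 called (adjusted p = 0.0130, all genes 2.69%). Of the cell type markers, all 13 chromaffin markers (median -0.71, 1 at an unadjusted p below 0.05) and 8 of 9 macrophage markers (median -0.52, 5 at that level) had lower fitted levels in treated mice, and 12 of 15 adrenocortical markers had higher ones (median 0.31, 3 at that level). Their part in the difference was not tested. The median over the members was 0.15, and -0.0037 over all genes.

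Within groups, most members varied little between mice, but 3 varied widely and were singled out after their values were seen. The median within-group SD of log2(CPM + 0.5) was 0.13 for the tested members and 0.23 for all tested genes. *Pex5*, the receptor of the main targeting signal, had an SD of 0.84, above 98.6% of tested genes. *Pex5* was at 54.0, 94.6, 129, and 187 CPM in LFD mice 2, 5, 6, and 7, at 66.8, 59.5, 223, and 183 CPM in HFD mice 1 to 4, and at 59.0, 55.2, 100.1, and 179 CPM in icosapent ethyl–treated mice 1 to 4. LFD mouse 7, HFD mice 3 and 4, and treated mouse 4 were high, so that each group held both high and low mice, and the log2 fold change of 0.20 in HFD versus LFD mice had an SE of 0.488 (adjusted p = 0.839). *Pex5* (ENSMUSG00000005069) lies at chr6:124396816-124415067, minus strand.

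The other 2 were *Pex26*, with an SD above 94.9% of tested genes, and *Ehhadh*, above 89.5%. *Pex26* was at 11.5, 7.37, 6.83, and 3.90 CPM in LFD mice 2, 5, 6, and 7, at 14.2, 12.1, 4.79, and 9.72 CPM in HFD mice 1 to 4, and at 11.5, 13.3, 4.58, and 9.46 CPM in icosapent ethyl–treated mice 1 to 4. *Ehhadh* was at 7.63, 5.18, 3.41, and 2.73 CPM in LFD mice 2, 5, 6, and 7, at 6.94, 5.17, 3.77, and 4.70 CPM in HFD mice 1 to 4, and at 6.63, 6.48, 3.21, and 3.46 CPM in icosapent ethyl–treated mice 1 to 4. In LFD mice the order of *Pex5* was the reverse of that of *Pex26* and *Ehhadh*, and HFD mouse 3, highest in *Pex5*, was the lowest HFD mouse in both. The mean log2(CPM + 0.5) of the adrenocortical markers was 9.60, 9.77, 9.87, and 10.2 in LFD mice 2, 5, 6, and 7, the same order as *Pex5*, and HFD mice 3 and 4 and treated mouse 4, high in *Pex5*, had the highest marker means at 10.5 each. HFD mouse 2 went the other way, with a marker mean of 10.1 and *Pex5* at 59.5 CPM, below LFD mouse 6 at 129 CPM. Whether the spread of *Pex5* goes with the makeup of the dissected tissue was not tested. At the other end, *Acot8* had a within-group SD above only 0.226% of tested genes, *Pex3* above 1.90%, and *Pex6* above 2.24%.

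**Figure D4:**
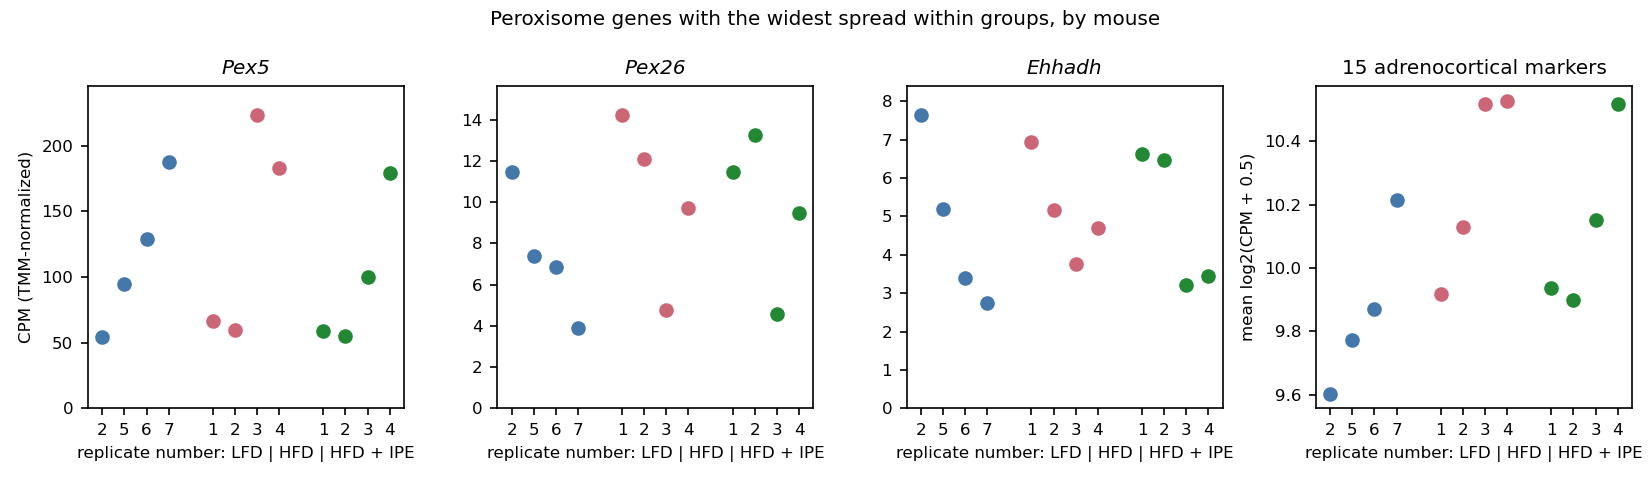
CPM (TMM-normalized) of *Pex5*, *Pex26*, and *Ehhadh* in each mouse and, on the right, the mean log2(CPM + 0.5) of the 15 adrenocortical markers, with mice of each group side by side under their replicate numbers. *Pex5* is high in LFD mouse 7, HFD mice 3 and 4, and treated mouse 4, which have the highest marker means. *Ehhadh* lies between 2.73 and 4.70 CPM in those 4 mice. HFD mouse 2, with a marker mean of 10.1, has *Pex5* at only 59.5 CPM.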

How the data were processed

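Adrenal cortex RNA of 12 mice was sequenced, and for every mouse the authors deposited raw counts of reads on each gene. Per the methods and labels, reads were trimmed with cutadapt, aligned to GRCm38 with STAR, and counted on GENCODE M12 genes with HTSeq 0.6.1p1 in reverse-strand mode. Groups and replicate numbers came from the labels. Symbols and positions came from GENCODE M21 (49326 of 49585 genes). Counts were fitted in edgeR 4.0.16 (R 4.3.3; TMM factors, low counts removed by filterByExpr with a minimum of 10, quasi-likelihood test with robust dispersions) within the groups compared, with Benjamini-Hochberg adjustment over all genes tested at 0.05, and the procedure was tested on simulated data. CPM were scaled by TMM, and log2 levels used a pseudocount of 0.5.

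The members, pathway lists, and marker lists were chosen with earlier results of these data known. All members are named, and the 8 with the lowest p in HFD versus LFD mice are given mouse by mouse because none passed the threshold. Alternatives were DESeq2 1.42.0 (Wald test), DESeq2 size factors, library totals, other count filters, all 12 mice in 1 fit, a threshold of 0.1, marker covariates, leaving out each mouse, and a block on the replicate number between icosapent ethyl–treated and HFD mice. Same-numbered mice of these groups deviated from their group means with correlations of 0.31, 0.146, 0.392, and 0.76 for numbers 1 to 4. Some crossed pairs correlated more (up to 0.681). The main fit left the numbers out, and only the block alternative treated them as pairing. The labels do not say what a number stands for. Between the diets, the number 2 alone is shared. Peroxisomal targeting signals were not analysed here, and some genes of the lists are not reported here by name.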

Additional observations from a re-analysis of the deposited data

Results flagged for a closer look

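In 5 of the 99 sets of 4 mice formed by the members and groups, 1 mouse stood apart from the other 3, with a gap to its nearest neighbor that took up most of the range of the group (above the 95% limit of Dixon). Chance gives about 1 in 20 such sets. The share of the range was 0.9839 for *Cat* in HFD mouse 1, which was low, 0.8896 for *Pex2* in LFD mouse 2, which was high, 0.888 for *Pecr* in icosapent ethyl–treated mouse 4, which was high, 0.8511 for *Pex19* in LFD mouse 7, which was high, and 0.8297 for *Pex11g* in HFD mouse 3, which was low.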

How the results depend on the processing

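In HFD versus LFD mice, the number of members past the threshold was 0 in edgeR (1.45% of all genes), 5 with DESeq2 (12.3%), 7 with the adipocyte marker mean as a covariate (15.4%), 4 at an adjusted p below 0.1 (8.77%), 3 with all 12 mice in 1 fit (3.42%), 1 without a filter on low counts (1.04%), and 0 to 2 when 1 mouse was left out, with 2 (*Cat* and *Pex16*) without HFD mouse 1 (5.70%). Members higher at an unadjusted p below 0.05 numbered 12, but 6 with library totals and 4 with the chromaffin covariate, for which the median log2 fold change was 0.055 and 0.085 instead of 0.15. Over all genes, the median in these fits was -0.11 and 0.023 instead of -0.015, and with the chromaffin covariate no gene passed the threshold. *Pex5* changed sign with the chromaffin covariate (-0.063), and leaving out 1 mouse gave -0.16 (without HFD mouse 3) to 0.51 (without LFD mouse 7), with -0.037 without LFD mouse 2 and -0.0030 without HFD mouse 4. In icosapent ethyl–treated versus HFD mice, the median was 0.028 with library totals instead of -0.040, and the replicate block gave 0 members and 0 genes past the threshold, so pairing by number changed no call at the threshold. At an unadjusted p below 0.05 the block gave *Acox3*, lower, in place of *Pecr*, higher, and leaving out HFD mouse 1 gave *Cat*, lower, in its place. In treated versus LFD mice, DESeq2 called 1 member (*Pex16*). The cause of these shifts was not tested. Of the other values, 97 counts and medians stayed close to the main value, within a set ratio for counts and within the spread between mice for medians. Among single-gene values, 122 kept their direction and their side of the threshold, and 18 passed it under an alternative. The 4 mice of a group limited the precision for most members, and low counts limited it for *Acox2*, *Acaa1b*, and *Acot4*.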
